A study of Capra hircus with 2 samples.

Results

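The miR-2284 and miR-2285 family is a large group of microRNAs (miRNAs) that was described in cattle and has many copies in ruminant genomes. Its members were taken as every deposited entry whose miRNA name, without species prefix, begins miR-2284 or miR-2285, with reads summed for each lettered name and arm in each library. This gave 55 members of the 1808 miRNA names with arm in the series, 22 of them miR-2284 names and 33 miR-2285 names. They come from 37 lettered names (17 and 20), and 18 of these had reads on both arms. All 276 entries behind them carry the cattle prefix, so a goat sequence is described here under the name of the cattle miRNA it resembles.

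The libraries were made from testicular cells of 5-month-old Saanen dairy goats, an unmodified dairy breed. Testes of 3 goats were digested with enzymes and plated overnight, and the cells that did not attach were split magnetically by surface CD49f, the integrin alpha 6 chain that is used to enrich spermatogonia. The CD49f-positive group and the CD49f-negative group are each represented here by 1 small RNA library, and whether the goats were pooled is not stated. There is therefore no replicate check on any difference, no p-value is given, and every interval is an exact binomial (Clopper-Pearson) interval at 95% that covers counting error only, since reads amplified by PCR without molecular identifiers are not independent molecules.

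A miRNA is cut from a hairpin RNA, and either the 5′ side of the hairpin (5p arm) or the 3′ side (3p arm) can be loaded into an Argonaute protein. Bases 2 to 8 of the loaded strand, the seed, do most of the pairing with target messenger RNAs, so that a start shifted by 1 base gives another seed. In a family with many near-identical copies, a read can fit several hairpins, and the name it receives depends on how a matching program splits it.

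Named miRNA reads came to 8196507 in the positive library and 3064462 in the negative one, 2.67 times fewer. The 3 miRNAs of meiotic and post-meiotic germ cells, miR-34b, miR-34c and miR-449a, made up 2.25% of named reads in the positive and 11.4% in the negative library. Of the 4 smooth muscle, myoid and fibroblast miRNAs (22.7% and 19.1% together), miR-143 alone made up 22.1% and 18.5%, while miR-145 (0.402% and 0.479%), miR-199a (0.133% and 0.157%) and miR-214 (0.0137% and 0.0142%) had lower shares in the positive library. The endothelial miR-126 made up 1.43% and 0.755%, and the Sertoli miR-202 0.0320% and 0.0823%. All 3 epithelial miRNAs (0.00309% and 0.00919% together) and both red blood cell miRNAs (0.171% and 0.213%) were detected in each library. So were both white blood cell miRNAs (0.00918% and 0.0160% together), miR-142 at 0.00895% and 0.0158% and, the other way round, miR-223 at 0.000232% and 0.000163% from 19 and 5 reads. These marker values differed between the libraries beside the family values given below, and their part in the family values was not tested. Fewer cells of a type and less miRNA per cell cannot be told apart in such bulk samples.

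The most abundant product of the family was miR-2284y-5p. Its listed sequences are shown because they start at 3 different bases, with the seed in capitals, and the last is identical to the sequence that the deposited tables give for the cattle miRNA.
Leading form: tGAAAAGTtcgttcgggttttt
1 base shorter at the 5′ end: gAAAAGTTcgttcgggttttt
Form with the cattle 5′ end and length: aAAAGTTCgttcgggtttttc

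The hairpin that gave most of these reads is 91 bases long and is shown with its most copied sequence on each arm in capitals, the 5p sequence at bases 17 to 38 and the 3p sequence at bases 55 to 75.
miR-2284y hairpin: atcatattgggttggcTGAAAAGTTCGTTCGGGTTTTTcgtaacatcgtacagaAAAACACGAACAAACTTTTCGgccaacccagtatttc

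The members miR-2285k-3p, miR-2285n-3p, miR-2285f-3p and miR-2285l-3p shared their leading sequence. It is shown first, with the seed in capitals, above the cattle sequences of the 4 names under which it was entered.
Shared sequence: aAACCCGAatgaactttttg
Cattle miR-2285k: aAAACCGGaatgaactttttg
Cattle miR-2285n: aAAAACCCgaatgaacttttgg
Cattle miR-2285f: aAAACCTGaatgaactttttgg
Cattle miR-2285l: aAAACCCGcatgaactttttggc

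Of the other 3p members with at least 100 reads, miR-2285o-3p led with the same seed as the shared sequence. The leading 3p sequences of 4 others are shown because they have no seed in common.
miR-2285e-3p: aTAAACCTgaacgaactttttgt
miR-2285r-3p: aGAAACCTggatgaactttttgg
miR-2285i-3p: aAAACTGGaacgaactttttgg
miR-2285j-3p: aAAACCAGaacgaactttttgt

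The family was a small part of both libraries and its share was lower in the CD49f-positive one. It held 4385.5 reads there, 535 reads in each 1000000 named reads (RPM) or 0.0535% (0.0519% to 0.0551%). The CD49f-negative library held 2233.67 reads of the family, 729 RPM or 0.0729% (0.0699% to 0.0760%). Each count was raised by 0.5 reads before shares were compared, and the log2 ratio of the positive to the negative share was -0.45 (-0.52 to -0.37), a 1.36-fold lower share.

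That difference lay mainly in miR-2284y-5p. This member alone made up 34.1% of the family's reads in the positive library and 48.2% in the negative library. With it left out, 2891.35 and 1156.67 reads remained and the log2 ratio was -0.10 (-0.20 to 0.00). The miR-2284 names together had a log2 ratio of -0.91 (-1.01 to -0.80), from 1727.65 and 1212.17 reads. For the miR-2285 names together it was -0.04 (-0.14 to 0.07), from 2657.85 and 1021.5 reads.

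Scaling moved these ratios. The trimmed mean of M values (TMM), a scaling that takes the bulk of names as unchanged, shifted every log2 ratio by 0.82 when taken over all 1808 names and by 0.34 over the 298 names with at least 100 summed reads. The family ratio became 0.37 and -0.11 under these scalings, so its direction reversed under the first. Only 485 of the 1808 names had at least 20 summed reads, so that scaling took in many names with few reads. The median log2 ratio over those 298 names, members included, was -0.43, beside -0.45 for the family as a sum. The ratios below are stated against equal shares, at 0.

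Among the members, 11 had at least 100 reads summed over both libraries, 9 had from 20 to under 100, and 35 had fewer, with 0.583 to 15 reads each and 90.25 and 65.3 reads in all. The 6 most abundant members held 81.3% of the family's reads in the positive library and 79.4% in the negative, and the 11 members with at least 100 reads held 91.4% and 87.9%. In the positive and negative library 52 and 44 of the 55 members were detected, beside 1455 and 1291 of the 1808 names of the series. Of the members, 41 were detected in both libraries, 11 only in the positive and 3 only in the negative library, none of these with more than 3.5 reads. A count of 0 allows up to 3 reads, or 0.366 RPM in the positive and 0.979 RPM in the negative library, so these counts lie at or near what this depth can show.

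**Figure D1:**
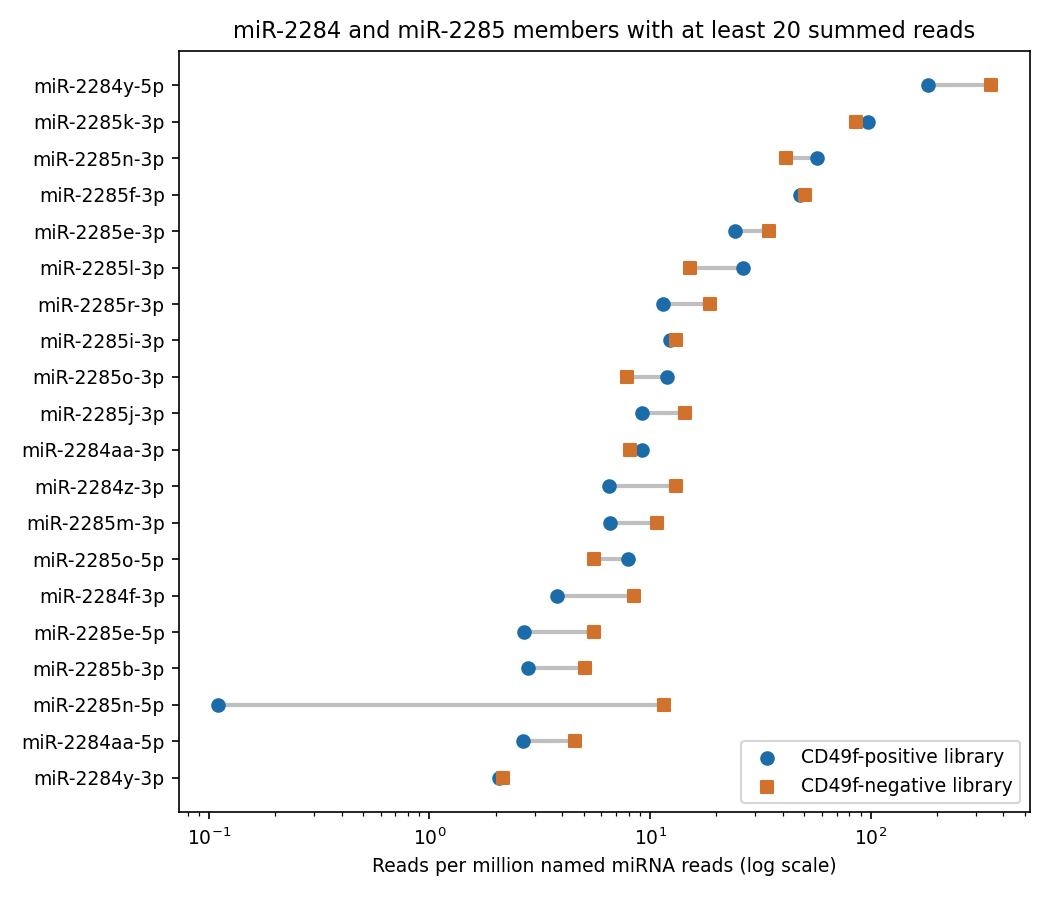
RPM (log axis) of the 20 members with at least 20 summed reads, with 1 point for each library and a grey line between them. miR-2284y-5p stands highest at 182 and 351 RPM, and miR-2285n-5p shows the widest gap, 0.110 against 11.6.

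miR-2284y-5p, the main 5p product of the family, was covered by 1494.15 reads in the positive and 1077 in the negative library, 182 and 351 RPM. Its log2 ratio was -0.95 (-1.06 to -0.83), a 1.93-fold lower share that falls just short of the 2-fold limit of the call used here. It was below 0 in all 8 alternatives computed for it, from -0.98 to -0.11. The interval included 0 with median of ratios, another scaling, over all names, at -0.11 (-0.23 to 0.0016). It also did at known hairpins only, at -0.32 (-0.98 to 0.41), a setting that leaves out the 2 hairpins with most of its reads.

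The members that led with the shared 3p sequence were close to equal in both libraries or higher in the positive one. miR-2285k-3p stood at 97.0 and 86.2 RPM, from 795 and 264 reads, for a log2 ratio of 0.17 (-0.03 to 0.38). miR-2285n-3p had 470 and 126 reads, and its log2 ratio was 0.47 (0.19 to 0.78). miR-2285f-3p, at 391 and 155 reads, had one of -0.08 (-0.36 to 0.19). Among members with at least 20 reads the highest ratio was that of miR-2285l-3p, at 217 and 46.25 reads, which is 0.80 in log2 (0.35 to 1.31). Of these 4, the interval lay above 0 for miR-2285n-3p and miR-2285l-3p.

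Other 3p members had lower shares in the positive library. For miR-2285e-3p, which had more reads in sum than miR-2285l-3p, the reads numbered 199 and 106. Its log2 ratio was -0.51 (-0.86 to -0.16). For miR-2285r-3p the counts were 94.1 and 57 and the ratio was -0.70 (-1.19 to -0.20). miR-2285j-3p followed with 75 and 44 reads and -0.66 (-1.21 to -0.08). These 3 intervals and that of miR-2284y-5p were the 4 that lay below 0 among members with at least 100 reads. The 3 contain -0.43, the median of the 298 names, and that of miR-2284y-5p lies below it.

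The remaining members with at least 100 reads could not be told from equal shares at this depth. miR-2285i-3p had 101 and 40 reads (log2 -0.09, -0.62 to 0.48), miR-2285o-3p had 97.4 and 24 (0.58, -0.06 to 1.31) and miR-2284aa-3p had 75.3 and 24.8 (0.16, -0.50 to 0.88). In sum, 5 of the 11 members were above 0 and 6 below, with a median log2 ratio of -0.08. Set against the -0.43 of the 298 names, 1 interval lay below it, 5 above it and 5 contained it. Of the 298 names in the series with as many reads, 75 (25.2%) were above 0.

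To be called, a name needed 100 reads in sum, a 2-fold difference in share and an interval that left out equal shares. By this rule 0 of the 11 members were called. Over all 298 names it called 6 higher (2.01%) and 74 lower (24.8%). With TMM over all names, which calls 16.4% of names higher and 5.03% lower, miR-2285l-3p, miR-2285n-3p and miR-2285o-3p were called higher and no member lower. With TMM over names with at least 100 reads, which calls 5.70% higher and 16.4% lower, the 1 called member was miR-2285l-3p, higher. With a minimum of 20 reads in place of 100, 4 of 20 members were called lower and 0 higher, where the same rule called 29.5% of 485 names lower and 1.44% higher.

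Those 4 were miR-2284f-3p, miR-2285e-5p, miR-2284z-3p and miR-2285n-5p. The counts of miR-2284f-3p were 31 and 26, for a log2 ratio of -1.17 (-1.97 to -0.36). miR-2285e-5p, the 5p arm of the miR-2285e hairpins, followed with 21.9 and 17 reads, at -1.07 (-2.03 to -0.04). miR-2284z-3p had 53.3 and 40.1 reads and -1.01 (-1.63 to -0.38). The other members with 20 to under 100 reads were miR-2285m-3p (53.8 and 32.8 reads), miR-2285o-5p (65 and 17), miR-2285b-3p (23 and 15.5), miR-2284aa-5p (21.7 and 14) and miR-2284y-3p (16.85 and 6.58). Of these 5 only miR-2285m-3p had an interval that excluded 0, at a log2 ratio of -0.72 (-1.36 to -0.04).

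**Figure D2:**
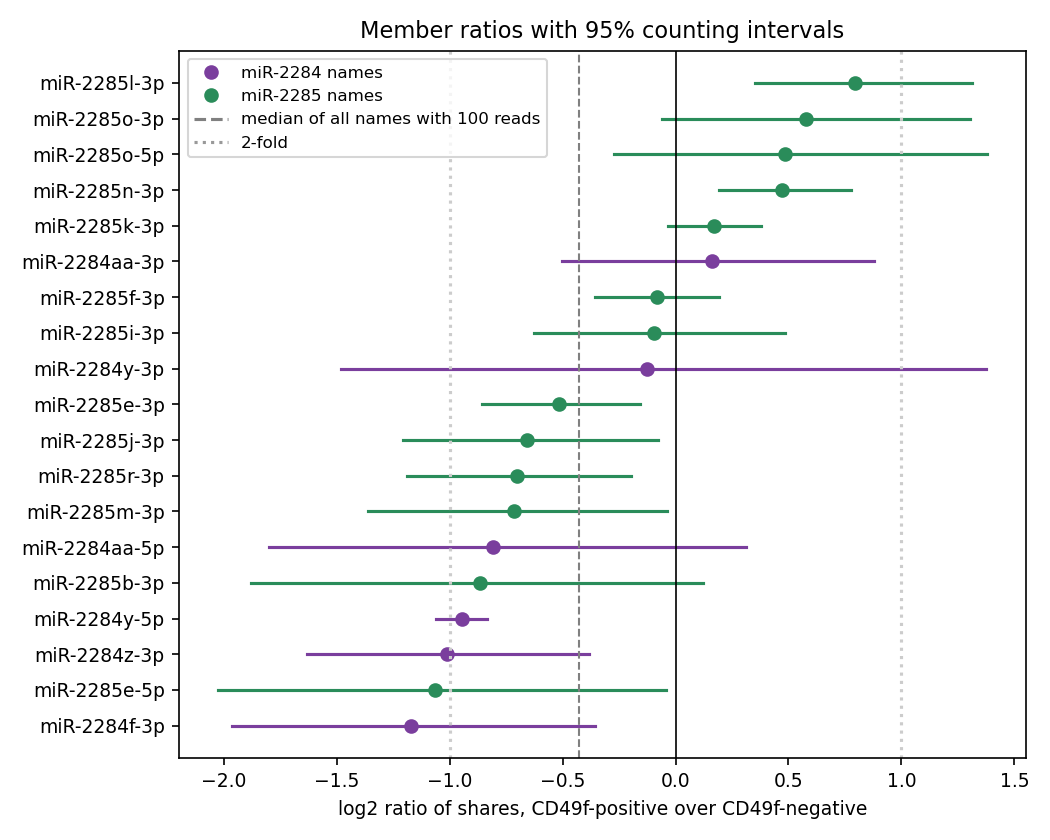
Log2 ratio of shares, CD49f-positive over CD49f-negative, for 19 members with at least 20 summed reads, with 95% counting intervals as bars; miR-2285n-5p at -6.10 is left off the axis. Members range from miR-2284f-3p at -1.17 to miR-2285l-3p at 0.80, and the dashed line marks the median of all names with at least 100 reads, -0.43.

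The ratio of miR-2285n-5p came from a name given to a 3p sequence. Its counts were 0.9 in the positive and 35.5 in the negative library, a log2 ratio of -6.10 (-11.93 to -4.02), and 33 of the 35.5 reads stood in 1 entry on chromosome 29 (25870557 to 25870818, minus strand). The sequence listed there was named miR-2285n-3p in the positive library under another hairpin on chromosome 11 (66666166 to 66666427), with 199 copies, and it had 58 copies in the negative library. It begins like the shared sequence above and is printed here to show the 3p form.
Sequence entered as 3p and as 5p: aAACCCGAatgaactttttgga
Its own log2 ratio was 0.35 (-0.07 to 0.81). With both arms of miR-2285n summed, 470 and 162 reads gave a log2 ratio of 0.12 (-0.14 to 0.38), against 0.47 for the 3p name alone. The chromosome 29 entry was the only 1 of 73 with the same start, end and side in both tables to change its name. Where windows differed by a few bases, other names changed too. A chromosome 19 place (46351116 to 46351380) was miR-2285n-3p in the positive and miR-2285k-3p in the negative library. An X place (91844755 to 91845016) was miR-2284y-5p in the positive and miR-2284x-5p in the negative library.

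Summing both arms also moved miR-2284aa, from 0.16 for its 3p arm to -0.11 (-0.65 to 0.47). Of 15 lettered names with at least 20 reads, 4 were above 0 and 11 below. The interval excluded 0 for 2 of the former, miR-2285l and miR-2285o (162 and 41 reads, log2 0.55, 0.06 to 1.09), and for 6 of the latter. With arms kept apart, the 485 names of the series with at least 20 reads had a median log2 ratio of -0.59. A majority below 0 is therefore not particular to the family.

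Several names shared 1 sequence. The shared 20-base sequence printed above was entered under miR-2285k-3p, miR-2285n-3p, miR-2285f-3p and miR-2285l-3p, at 6 entries in each library, and was the most copied of those entered under more than 1 name, with 270 positive and 75 negative copies. It matched the goat hairpin without a mismatch at 1 of the 6 entries, that of miR-2285f on chromosome 5. It was the sequence with most copies under all 4 names. The sequence itself had a log2 ratio of 0.42 (0.05 to 0.82). Reads of the 4 names together were 1871.92 and 591, which is 42.7% and 26.5% of the family, with a log2 ratio of 0.24 (0.11 to 0.38). Their separate ratios, from -0.08 to 0.80, rest in part on how these reads were split between 4 names.

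The next shared sequences were the one entered as 3p and 5p of miR-2285n, described above, and a 20-base 5p sequence that stood at 9 entries under miR-2284aa-5p and miR-2285n-5p.
Sequence under miR-2284aa-5p and miR-2285n-5p: aAAAAGTTtgttcgggtttt
It had only 9 and 4 copies, and matched none of its 9 places exactly.

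Many of the family's sequences were entered at more than 1 place. In the positive library 23 of its 105 distinct listed sequences (21.9%) stood at several entries, against 222 of 1912 (11.6%) for all other names. In the negative library it was 22 of 89 (24.7%) against 210 of 1740 (12.1%). The sequences at several entries held 55.9% and 69.0% of the family's listed copies, compared with 47.3% and 37.0% for other names. Sharing between names was rare, with 4 of 105 and 5 of 89 family sequences against 42 of 1912 and 46 of 1740. Counting each listed sequence once, with its copies in place of the split reads, gave a family log2 ratio of -0.32 (-0.43 to -0.20).

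Grouped by seed, 3 of 86 seeds held 64.8% of the listed copies in the positive library and 66.6% in the negative. GAAAAGT, the seed of the leading miR-2284y-5p form, had 640 and 399 copies (log2 -0.74, -0.92 to -0.55). AACCCGA, the seed of the shared 3p sequence, occurred under 6 names, with 589 and 167 copies and a log2 ratio of 0.40 (0.15 to 0.66). AACCGGA, found under miR-2285k-3p only, had 223 and 65 copies, at 0.35 (-0.05 to 0.78). The fourth seed, AAAAGTT, occurred under 8 names with 230 and 48 copies, 208 of the former in the 21-base form of miR-2284y-5p shown above.

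The seed of the sequence with most copies was seldom the cattle seed. Of the 10 members with at least 100 reads that carry the name of a mature cattle miRNA, 2 had it in each library, namely miR-2285r-3p and miR-2285o-3p. Among those without it, miR-2285k-3p, miR-2285n-3p, miR-2285f-3p and miR-2285l-3p were judged on the 1 sequence they share, which is thus counted 4 times. Among the other names of the series with as many reads the seed was the same for 213 of 258 (82.6%) in the positive and 213 of 257 (82.9%) in the negative library. Among the family's listed copies a start moved by 1 or more bases was the usual form. Starts at the cattle 5′ end made up 10.7% and 11.6% of copies, starts 2 bases before it 38.4% and 55.1%, 1 base before it 12.5% and 5.61%, and 1 base after it 38.4% and 27.4%, with a shared sequence counted once under its first name.

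Among the listed copies of miR-2284y-5p the longest form dominated in both libraries. The leading sequence, which starts 2 bases before the cattle sequence, had 631 copies in the positive library and 394 in the negative, a log2 ratio of -0.74 (-0.92 to -0.55). The form that starts 1 base before had 208 copies as a 21-base sequence in the positive library, where the negative library lists a 20-base sequence with the same start and 32 copies. The form with the cattle 5′ end and full length had 26 and 5 copies. By start, 72.8% of the member's listed copies in the positive library had the 2 added bases and 24.1% had 1, against 89.8% and 7.47% in the negative library. Only 1 sequence is listed for each entry, and the listed copies number 871 and 442 beside 1494.15 and 1077 reads. The starts of the other reads are not known, so these shares depend on which sequence was listed.

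**Figure D3:**
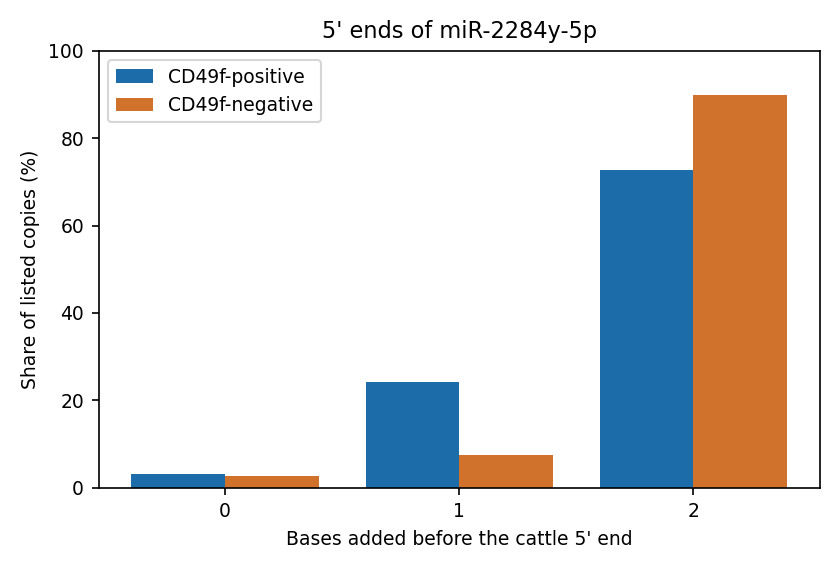
Share of the listed copies of miR-2284y-5p (vertical axis, percent) by the number of bases added before the 5′ end of the cattle sequence, with 1 bar for each library. Only the 1 sequence listed for each entry is counted. Starts with 2 added bases hold 72.8% in the CD49f-positive and 89.8% in the CD49f-negative library, and starts at the cattle 5′ end 3.10% and 2.71%.

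The arms of the family were used unequally. Reads on the 5p arm made up 38.1% (36.6% to 39.5%) of family reads in the positive library and 53.9% (51.8% to 55.9%) in the CD49f-negative library. In the miR-2284 names the 5p share was 89.3% and 91.2%, and in the miR-2285 names 4.77% and 9.50%. The 5p reads were nearly all miR-2284y-5p, and without this member the family's 5p share was 6.08% and 10.9%. The miR-2285 names had 97 5p reads in the negative library, of which 35.5 were miR-2285n-5p, mostly from the 3p sequence described above. In the positive library miR-2285n-5p had 0.9 of their 127 5p reads. Part of the difference between libraries in the miR-2285 share, and in the share without miR-2284y-5p, comes from that name. By lettered name, 1 of 12 names with at least 100 reads was mainly 5p, miR-2284y at 99.1%, and the other 11 were mainly 3p. The most even of these was miR-2285o, at 40.0% and 41.5% 5p. Of the 4 miR-2284 names with at least 20 reads, 1 was mainly 5p. At any depth, 8 of 17 miR-2284 and 4 of 20 miR-2285 names were mainly 5p, and the 11 of these other than miR-2284y had at most 16 reads each.

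The named reads leave out much of the 3p arm of miR-2284y. Its 2 leading hairpins, on scaffold C69023355 (540 to 801, plus strand) and chromosome 10 (3916276 to 3916537, minus strand), have identical sequences, so reads that match both cannot be told apart. For places outside known hairpins, as here, the deposited start and end bound a window longer than the hairpin itself. They held 86.8% of miR-2284y-5p reads in the positive and 92.7% in the negative library. The named 3p reads at both were 21 and 16, entered as miR-2284f-3p. Overlapping entries on the same strand that carry no miRNA name held a further 1099 and 706 reads of the 3p arm, 134 and 230 RPM. Their leading sequence lies inside the printed hairpin without a mismatch, had 553 and 295 copies, and has the seed AAACACG, which 4 of the 6 sequences listed as miR-2284f-3p also have.
3p arm without a name: aAAACACGaacaaacttttcg

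With these entries the 5p share at the 2 hairpins was 53.7% (51.7% to 55.7%) in the positive library and 58.0% (55.7% to 60.4%) in the negative, in place of 98.4% in both for named reads. Both arms had lower shares in the CD49f-positive library. The log2 ratio was -1.04 (-1.16 to -0.92) for the 1297 and 998 named 5p reads and -0.78 (-0.92 to -0.64) for the unnamed 3p reads. Over the whole family, adding all unnamed entries at family places lowered the 5p share to 30.4% and 40.8%, and left the log2 ratio of the share at -0.52 (-0.58 to -0.45).

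**Figure D4:**
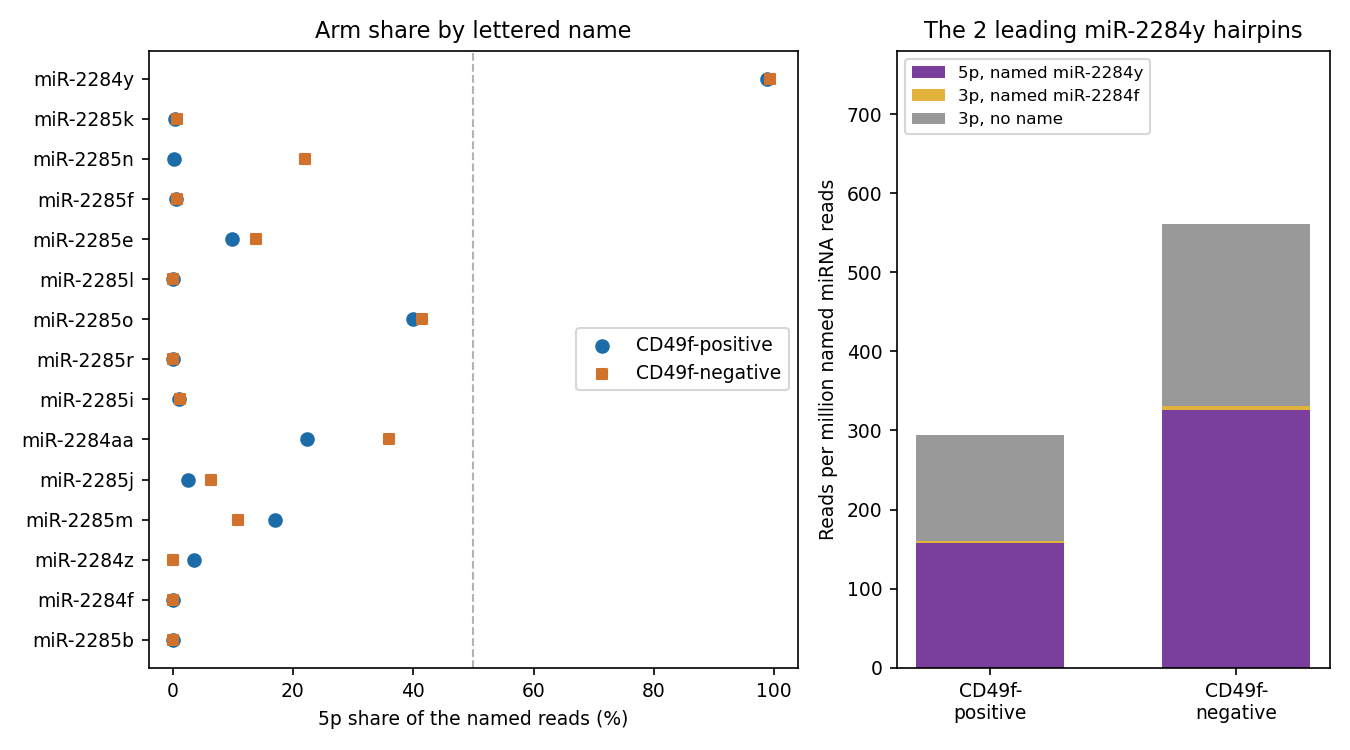
Left, 5p share of the named reads in each library for the 15 lettered names with at least 20 reads, where miR-2284y alone lies above the dashed 50% line. Right, RPM at the 2 leading miR-2284y hairpins as stacked bars, where the 3p reads without a name reach 134 and 230 RPM beside 158 and 326 RPM for the named 5p arm.

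The sequences of the 2 arms mirror each other. AAAGTT and its reverse complement AACTTT, searched for on the listed strand, so that each also stands for the other on the opposite strand, never occurred together. One or the other was found in 76.2% and 77.5% of the family's distinct listed sequences in the positive and negative library. Among the listed sequences of all other names 1.41% and 1.09% held either. Sequences with AAAGTT carried 1571 and 1118.62 reads and those with AACTTT 2692 and 1027.42, together 97.2% and 96.1% of family reads. With the arm taken from these motifs, the 5p share was 36.9% and 52.1%, close to that by name. The motif disagreed with the name's arm in 0 entries of the positive and 2 of the negative library (34 reads). With the side of the hairpin as deposited it disagreed in 4 entries of each library (113 and 54.3 reads).

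On chromosome 24 the same stretch was entered on both strands under names of both kinds. The 80-base miR-2285o hairpin lies on the plus strand (33613596 to 33613675) and a 77-base hairpin entered as miR-2284y on the minus strand (33613598 to 33613674) is the exact reverse complement of a stretch inside it. They are printed with the 3p motif AACTTT and the 5p motif AAAGTT in capitals.
miR-2285o, plus strand: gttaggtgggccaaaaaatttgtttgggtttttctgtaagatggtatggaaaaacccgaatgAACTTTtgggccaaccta
miR-2284y, minus strand: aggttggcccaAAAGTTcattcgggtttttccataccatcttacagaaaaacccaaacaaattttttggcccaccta
The plus strand had 108.9 reads and the minus strand 27.9 over both libraries, and no read on either strand was free of mismatches. In the positive library the sequence listed on the minus strand was also entered on chromosomes 1 and 11. Reads from each strand of this stretch are therefore not established. The cattle sequences of miR-2284y and miR-2285o are also complementary over 18 bases in a row. A second such pair lies on chromosome 5, with 2 reads on the plus strand (92934806 to 92935063, miR-2284aa) and 0.583 on the minus strand (92934893 to 92934955, miR-2284r).

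The family was spread over many places in the goat genome. Its entries had 117 positions on 29 chromosomes and 3 scaffolds, in a genome build that is not given in the sources used here, or 3.16 positions for each lettered name. Other cattle-discovered miRNAs outside the family had 73 positions for 88 lettered names, let-7 with miR-98 had 17 for 11, and miR-30 had 8 for 6. No chromosome held more than 8 positions, the number on the X chromosome. Some positions differed by a few bases between libraries, and merging windows that overlap on the same strand left 110 places. The RefSeq gene list for goat (assembly ARS1.2) names 5 genes of the family, MIR2284A to MIR2284E, of which 4 letters were among the members, and 0 of miR-2285.

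The authors' tables set 44 of the 110 places at known miRNA hairpins and 66 elsewhere. Of the known ones 39 had reads in both libraries, and of the others 23. Entries at known hairpins held 48.1% of the family's reads in the positive and 36.3% in the negative library, beside 99.0% and 98.4% of all named reads. The 2 leading miR-2284y hairpins are not among the known ones, and at known hairpins only, the family's log2 ratio was -0.05 (-0.17 to 0.07). The hairpins at known places had a median GC content of 39.05% (31.3% to 47.4%), against 49.5% for 436 other known places, and a median predicted folding energy of -31.6 against -38.3 kcal/mol.

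Reads were concentrated on few places. The 10 positions with most reads held 69.9% of family reads in the positive and 69.5% in the negative library, and 67 of the 117 had fewer than 10 reads. After the 2 miR-2284y hairpins came miR-2285f on chromosome 5 (47797069 to 47797138, plus strand), with 296 and 107 reads. The miR-2285k hairpins on chromosomes 13, 3 and 1 had 250 and 85.9, 241 and 76.25, and 162 and 53.2 reads. Of these only 44.4 and 14.7, 4.72 and 2.33, and 1 and 0 reads were free of mismatches to the hairpin. At the miR-2285f place 67.6 and 20.6 reads were. miR-2285l had 1 place, on chromosome 2 (102767563 to 102767637, minus strand), with 217 and 46.25 reads. A further miR-2284y-5p place on chromosome 20 (22415174 to 22415434, minus strand) was given 128 and 40.5 reads, which put its log2 ratio at 0.23 (-0.26 to 0.81) where the 2 leading hairpins had -0.92 and -1.17. It is the place where the tables enter the form with 1 added base. That form lies whole within the leading form, so it also fits the 2 leading hairpins. Its 208 copies in the positive library exceed the 128 reads given to this place. The separate ratios of these places therefore rest in part on how such reads were divided.

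**Figure D5:**
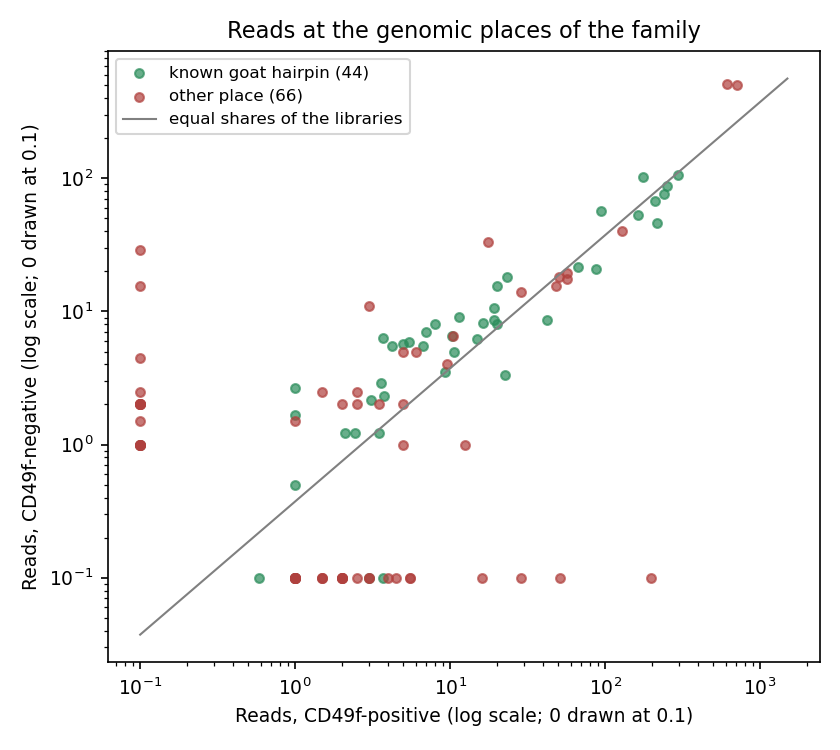
Reads of the family at each of 110 genomic places in the CD49f-positive (horizontal) and CD49f-negative library (vertical), both on log axes, with 44 known goat hairpins and 66 other places in 2 colours and a line for equal shares of the libraries. The 2 points at the top right are the leading miR-2284y hairpins, above the line, and the 31 and 17 places on the edges, where 0 reads are drawn at 0.1, had reads in 1 library only.

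Places with reads in 1 library only did not always mean a product seen in 1 library only. Before merging, the family had reads at 93 and 80 of its 117 positions, and all names together at 868 and 817 of 1154. Places with reads in 1 library only numbered 31 in the positive and 17 in the negative library, and 4 of these had at least 20 reads. The largest was the chromosome 11 place of miR-2285n-3p with 199 and 0 reads, whose sequence had 58 copies at other places in the negative library. One of those was a place on chromosome 27 (31001073 to 31001334, minus strand) with 0 and 29 reads.

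Many reads of the family differed from the goat hairpin. Reads without a mismatch made up 49.7% of family reads in the positive and 55.4% in the negative library, against 67.3% and 64.0% of all named reads. Among the main members the share ran from 17.6% and 13.3% for miR-2285f-3p to 99.0% and 92.5% for miR-2285i-3p, with 80.7% and 78.5% for miR-2284y-5p. A mismatch here is one to the goat hairpin of the entry, since all 73 placed sequences listed with none lay in that hairpin and 0 of 139 listed with 1 or more did. At 54 of 117 positions no read was free of mismatches, and 46 had a listed sequence that matched exactly. With mismatch-free reads only, the family's log2 ratio was -0.67 (-0.77 to -0.57) and its 5p share rose to 56.6% and 71.6%.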

How the data were processed

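The authors matched small RNA reads of goat testicular cells, sorted by CD49f, to mammalian miRNA hairpins, a goat genome and expressed sequences, per the file headers and column description. Aligner, miRBase release and build: not given in the sources used here. The deposited value of each hairpin arm is an expected count, in which the authors divided reads that fit more than 1 hairpin. The copies of a listed sequence are deposited as whole counts. Hairpin GC is deposited as a percent.

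Entries were summed by miRNA name and arm in each library. An entry without an arm took the side that held most reads of its name. Ratios compare shares of named reads with 0.5 reads added, and intervals use rounded counts. Unnamed entries stayed out of totals. Alternatives were TMM with edgeR 4.0.16, median of ratios with DESeq2 1.42.0, and others in the closing section. The calls were tested on simulated data (Python 3.11.15, SciPy 1.17.1) with counting error only, scaled on the names known to be unchanged. Such data cannot show how the choice of scaling or differences between goats affect the calls. Named are members with at least 100 summed reads, the 12 most abundant, the 5 highest and 5 lowest ratios among those with at least 20, and the 3 most copied sequences shared between names. Further members, places and the unnamed 3p arm were named after their values were seen. The members and lists were chosen with earlier results of these data known.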

Additional observations from a re-analysis of the deposited data

Results flagged for a closer look

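Entries without a miRNA name, which enter no total above, held sequences of the family in more than the 3 reads that could go unseen. At places that overlap a family entry on the same strand they had 1141 reads in the CD49f-positive and 720.5 in the CD49f-negative library, equal to 26.0% and 32.3% of the named family reads, with a log2 ratio of -0.76 (-0.89 to -0.62). The 3p arm of the leading miR-2284y hairpins accounted for 1099 and 706 of them. At other places, unnamed sequences that share at least 16 bases in a row with a listed sequence of the family had 305.5 and 161.5 reads at 39 and 33 entries, with a log2 ratio of -0.50 (-0.78 to -0.22).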

How the results depend on the processing

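The family's log2 ratio of -0.45 depended on scaling and on which reads were counted. It was 0.37 with TMM and 0.39 with median of ratios over all names, and -0.14 without the 10 most abundant miRNAs in the total. Over names with at least 100 reads, alternatives chosen after seeing the data, it was -0.11 and -0.014. It was -0.67 for mismatch-free reads, -0.048 at known hairpins, -0.32 with each sequence counted once and, as added alternatives, -0.10 without miR-2284y-5p and -0.52 with unnamed entries. In place of 0 of 11 members called, there were 3 with TMM (16.4% of all names tested called higher) and 4 with median of ratios over all names (16.8%), 1 and 2 over names with at least 100 reads (5.70% and 8.72%), 1 without the top 10 (5.37%) and 1 of 7 with mismatch-free reads (1.65%), all higher. With minimums of 20 and 50 reads 4 of 20 and 2 of 15 were called, all lower, where 29.5% and 26.9% of all names were. The count stayed 0 of 7 at known hairpins, where 0.877% of 228 names were called higher and 22.4% lower. It stayed 0 of 11 with a 4-fold rule (0.671% and 3.69% of 298 names) and with 5 reads added (1.34% and 25.2%). The 5p share of 38.1% and 53.9% became 56.6% and 71.6% for mismatch-free reads, 9.30% and 11.5% at known hairpins and 25.8% and 37.7% for entries named with their own arm. As added alternatives it was 6.08% and 10.9% without miR-2284y-5p, 30.4% and 40.8% with unnamed entries, and by motif 36.9% and 52.1%. It was lower in the CD49f-positive library in each of these. Part of the difference without miR-2284y-5p came from the miR-2285n-5p reads of a 3p sequence in the negative library. The causes of these changes were not tested beyond the construction of each alternative. Of the 11 main members, 5 changed sign with either scaling over all names, which takes in many names with few reads. No paired analysis was possible because each group has 1 library.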
